A study of Gallus gallus with 3 samples.

Results

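Star probes are the miRNA probes on the array whose name ends in an asterisk, and 77 of the 542 chicken miRNA probes carried one. They were taken by name alone, so no measured value chose them. A miRNA is cut from a hairpin precursor as a duplex, and each arm of the hairpin gives one strand. One strand, the guide, is loaded into an Argonaute protein and directs it to target mRNAs through its seed, the bases near its 5′ end, while the other, the passenger strand, is mostly degraded. The asterisk is the older way of naming the strand that was rarer when a miRNA was first sequenced, and the partner strand then has the same name without it. Which strand is kept can differ between tissues, and a name given in one tissue does not fix the strand found in another. Of the 77 star probes, 74 had a probe for the partner strand, and miR-1690*, miR-1751* and miR-1784* had none.

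The samples came from leg muscle of recessive White Rock chickens, a meat-type breed, at 7 weeks of age. Dwarf chickens carry the sex-linked dwarf defect of the growth hormone receptor gene (GHR), a deletion near its end, and normal chickens of the same breed were the controls. Each of the 3 two-colour arrays compared 1 pool of 3 dwarf chickens with 1 pool of 3 normal chickens, so that each strain had 3 pools and 9 chickens in all. On arrays 1 and 3 the normal pool was read in Cy3 and the dwarf pool in Cy5, and on array 2 the dyes were swapped. Pools of chickens were the replicates, and the spread between single chickens was not measured.

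Each probe was printed in 6 spots. Signals are fluorescence above a local background drawn through the miRNA spots themselves, evened between dyes and scaled between arrays. A probe was called detected where its mean signal over the 3 pools of a strain was above 32. This cut-off has the same number as that of the paper, but it was applied to signals computed here. The authors' own signals were not used, so the cut-off need not mark the same level in both. The paper reports more detected miRNAs in each strain at this age. The detection counts below therefore belong to the processing used here and are not those of the paper. The median background was 304 to 830 in Cy3 and 44.3 to 53.2 in Cy5, so a dim probe was measured less precisely in Cy3. Most muscle miRNAs were bright: miR-1a had the highest mean signal of all probes (24043), and miR-133a, miR-133b, miR-133c and miR-206 were also detected, while miR-1b was not. miR-499 passed in dwarf chickens (mean 321) but not in normal chickens (29.6), and ran from 1.91 to 504 over the pools. The vessel miRNA miR-126 (3269), 1 of 2 blood miRNAs (miR-451, 73.0; miR-144 not detected) and the liver miRNA miR-122 (134, from 3.67 to 272 over the pools) were detected, and those of brain (miR-124a and miR-9) and pancreas (miR-375) were not. The part of these other cells in the signals of the star probes was not tested.

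The sequences of the star probes that carried signal, of their partners and of pairs with the opposite order are given here as the array files list them, 5′ to 3′, with the seed (bases 2 to 8) in capitals. The first 5 show the detected star probes, their partners and miR-199b, whose sequence is almost that of miR-199*.
miR-199*: uACAGUAGucugcacauugg
miR-199: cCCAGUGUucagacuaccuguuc
miR-199b: cAGUAGUCugcacauuuggu
miR-140*: cCACAGGGuagaaccacggac
miR-140: aGUGGUUUuacccuaugguag
The next 4 show pairs with the opposite order, that of miR-22, whose star probe was the brightest beside a detected partner without being detected itself, and that of miR-126, with the brightest partner.
miR-22*: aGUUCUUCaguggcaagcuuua
miR-22: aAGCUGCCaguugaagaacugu
miR-126*: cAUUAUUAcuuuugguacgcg
miR-126: uCGUACCGugaguaauaaugcgc
None of these 9 seeds was shared with any other probe on the array. Those of miR-199* and miR-199b differ because the listed sequence of miR-199b starts at base 3 of miR-199*. Among all 77 star probes, 4 shared a seed with another probe (miR-1625* with miR-1704, miR-1684* with miR-1745, miR-1749* with miR-1741 and miR-449c* with miR-1727), and none of these 8 probes was detected.

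Only 2 of the 77 star probes (2.60%) were detected, miR-199* and miR-140*, and both were above 32 in each of the 6 pools. The same 2 were detected in dwarf and in normal chickens. This count depended on the background: with that of the empty spots in place of the surface through the miRNA spots, 2 star probes passed in dwarf chickens but 76 in normal chickens, as did 464 of the 465 probes without an asterisk. Of the 465 probes without an asterisk, 83 (17.8%) were detected, and of the 74 partners, 12 (16.2%). Most star probes, 51 of 77, were numbered miR-1550 to miR-1816, and 0 of these were detected, against 2 of the other 26 (7.69%). Over all 542 probes, 85 (15.7%) were detected in dwarf chickens, and 74 of these in normal chickens. These shares describe the probes of one array design, in which names had been given before the experiment.

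The remaining 75 star probes had mean signals over the 6 pools from -15.9 to 15.9, with a median of -1.15, and none was above 32 in any single pool. Signals below 0 are spots dimmer than the background surface around them. That surface was drawn through the miRNA spots, most of them undetected, so a typical probe lies near 0 by construction. The median over all 542 probes was 0.74. The widest range was in the normal pool of array 1, read in Cy3, in which these probes ran from -91.2 to 22.6. The highest single values were 30.7 for miR-1621* in the dwarf pool of array 1 and 26.7 for miR-22* in the dwarf pool of array 3. There was a wide gap at the detection standard. The dimmest detected star probe, miR-140*, had a mean of 209, and the brightest that was not detected, miR-1621*, had 15.9, followed by miR-22* (10.7) and miR-1676* (10.7). For probes under the standard the arrays give no level, and absence of the RNA was not shown.

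**Figure D1:**
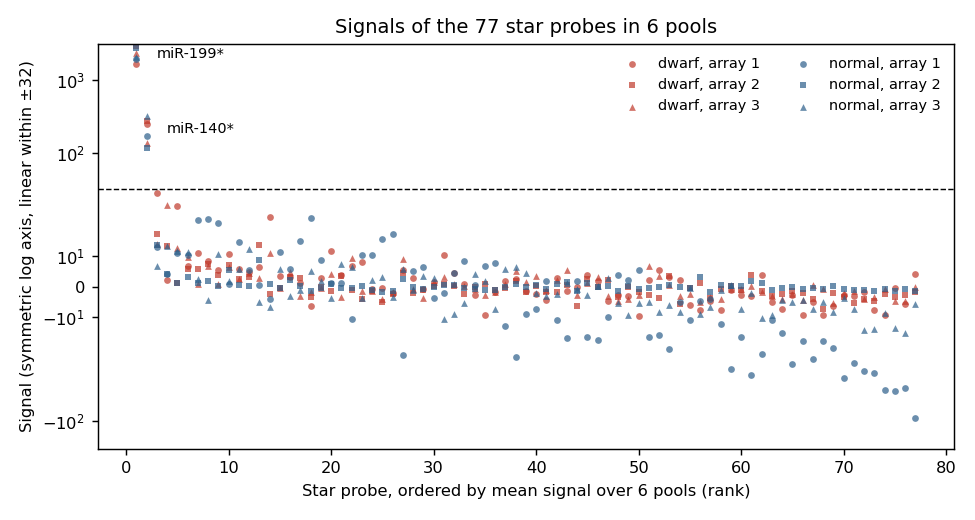
Signal (symmetric log axis, linear within ±32) of each of the 77 star probes, ordered by mean signal, with 1 point for each of the 6 pools (colour for strain, shape for array) and the detection standard of 32 as a dashed line. miR-199* and miR-140* lie above the line in all 6 pools, and the other 75 lie below it in every pool.

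miR-199* had the 17th highest mean signal of the 542 probes (2239). The miR-199 hairpins are known in mammals from connective tissue, smooth muscle and other mesenchymal cells. In dwarf chickens its signal was 1647, 2904 and 2322 on arrays 1, 2 and 3, and in normal chickens it was 1886, 2656 and 2020. The strains overlapped, with both the lowest and the highest pool being dwarf. All 6 spots were above background in each dye on each array, with a coefficient of variation between spots of 8.92% to 27.3%.

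The probe of miR-199b, which has no asterisk, bore the next highest signal (1719, rank 18). It shares an unbroken run of 16 bases with the 20-base probe of miR-199*, starting at its base 3. Aligned without a gap over 18 bases, the 2 sequences differed by 1 substitution, G19U (miR-199* base first, counted from its 5′ end). The miR-199b probe read 1212, 2343 and 1849 in the dwarf pools and 1447, 1817 and 1645 in the normal pools. miR-199* was 1.23 to 1.46 times as bright as miR-199b in the 6 pools. The 2 signals can therefore not be told apart as separate RNAs on this array. For miR-140*, the longest run shared with any other probe was 8 bases, with miR-10b, which was not detected.

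miR-140* had the 46th highest mean signal (209). The miR-140 gene is best known from cartilage. Its signal was 244, 272 and 136 in the dwarf pools and 170, 115 and 315 in the normal pools. The highest and the lowest pool were both normal, so the strains overlapped over their whole range. All 6 spots were again above background in each dye on each array, with a coefficient of variation of 7.96% to 15.2%. The spots within an array thus varied less than the pools did.

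The gene table of RefSeq for assembly GRCg7b named a gene for 72 of the 77 star probes. The position of MIR140 overlapped WWP2, a gene for a ubiquitin ligase. miR-199* matched 2 genes, MIR199A2, which overlapped DNM3, and MIR199B1, which overlapped DNM1. DNM3 and DNM1 code for dynamins, which pinch vesicles from membranes. Strands were not compared, so an overlap does not show that the miRNA is cut from the transcript of the other gene. The probe could not separate transcripts of MIR199A2 and MIR199B1. No levels of the overlapping genes were measured.

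Each star probe was then set against its partner. A signal depends on how well a probe binds as well as on the RNA, so a ratio of 2 probes compares brightness and not numbers of molecules. Both probes were detected in 1 of 74 pairs (miR-199), the star probe alone in 1 (miR-140), the partner alone in 11, and neither in 61.

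**Figure D2:**
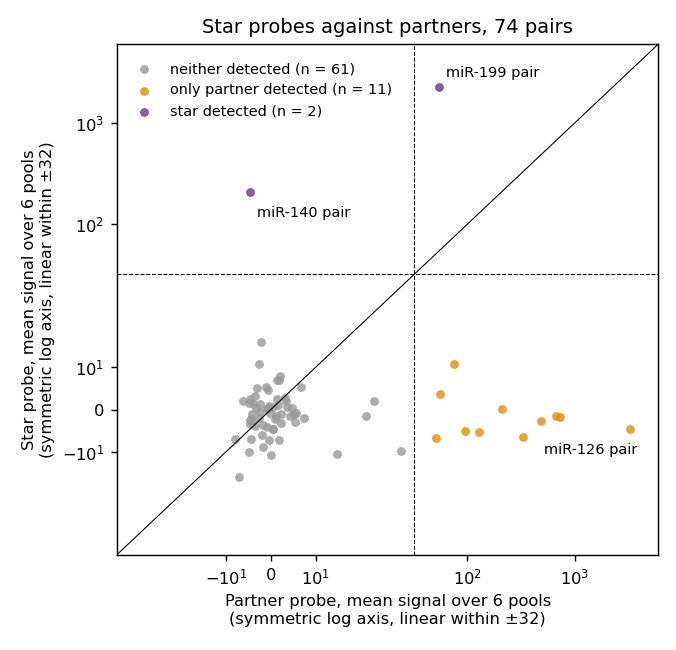
Mean signal over 6 pools of each star probe against that of its partner (both on symmetric log axes, linear within ±32), 1 point for each of 74 pairs, with equal signal as a diagonal and the detection standard of 32 as dashed lines. The miR-199 and miR-140 pairs lie above the diagonal, 11 pairs lie in the lower right with only the partner detected, and 61 pairs cluster near 0.

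In the miR-199 pair the order of the probe signals was the reverse of the names. RNA of miR-199b may supply part or all of the signal of the miR-199* probe, so the ratios below are of probes. miR-199 had a mean signal of 54.4, with 100, 57.2 and 52.2 in the dwarf pools and 17.5, 50.6 and 48.7 in the normal pools, so it was above 32 in 5 of 6 pools. The lowest dwarf pool was just above the highest normal pool, and the exact two-sided permutation test over pools gave p = 0.1, the smallest that 3 pools against 3 can give. The exact two-sided permutation test over pools gave p = 0.8 for miR-199* and p = 0.9 for miR-140*. It does not use the pairing of pools on the arrays. The log2 dye ratios, which keep that pairing, were 0.52, -0.18 and -0.04 for miR-199 on arrays 1, 2 and 3, so the arrays differed in direction. In the normal pool of array 1, where miR-199 was below 32, 5 of its 6 spots were above background. Their coefficient of variation was 222%. Before evening between dyes and scaling, miR-199 on array 1 was 25.9 in the dwarf pool and 22.8 in the normal pool. The gap there of 100 against 17.5 thus depended on the evening between dyes. miR-199* was brighter than miR-199 in each of the 6 pools. It was 16.4-fold to 52.5-fold brighter in the 5 pools in which miR-199 was above the standard, at least 58.9-fold brighter in the other, with miR-199 set at 32, and 41.1-fold brighter as a ratio of means over the 6 pools. On the log2 scale the ratio of miR-199* to miR-199 was 4.04, 5.67 and 5.47 in the dwarf pools and at least 5.88, 5.71 and 5.38 in the normal pools of arrays 1, 2 and 3. Over the 5 pools with a measured ratio the mean was 5.25 ± 0.693 (SD, n = 5 pools).

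In the miR-140 pair the order was also reversed. The partner miR-140 was not detected, with a mean signal of -4.58, and only 1 to 3 of its 6 spots were above background in any dye and array. miR-140* was at least 6.53-fold brighter, with the partner set at the standard of 32. The miR-199 and miR-140 pairs were the only ones in which the star probe was the brighter detected one.

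In the other 11 pairs the partner was brighter, by at least 1.60-fold to at least 102-fold against the same standard. The highest bound was that of miR-126, a miRNA of vessel endothelium, with a signal of 3269 against -4.61 for miR-126*. It was at least 22.8-fold for miR-99a, 20.9-fold for miR-181a, 15.04-fold for miR-146b and 10.4-fold for miR-1451. miR-146b and miR-146c belong to a family known in mammals for dampening innate immune signalling, and the bound for miR-146c was 6.64-fold. The bounds for miR-1416 (4.01), miR-15c (2.98), miR-22 (2.36), miR-1456 (1.75) and miR-10a (1.60) were low because these partners were dim, with signals of 51.2 to 128. Of these 11 star probes, miR-22* had the highest mean signal, 10.7, and its own values were 2.39, 13.4 and 26.7 in the dwarf pools and 4.26, 4.08 and 13.4 in the normal pools. All 6 of its spots were above background in both dyes of arrays 2 and 3, but not on array 1.

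**Figure D3:**
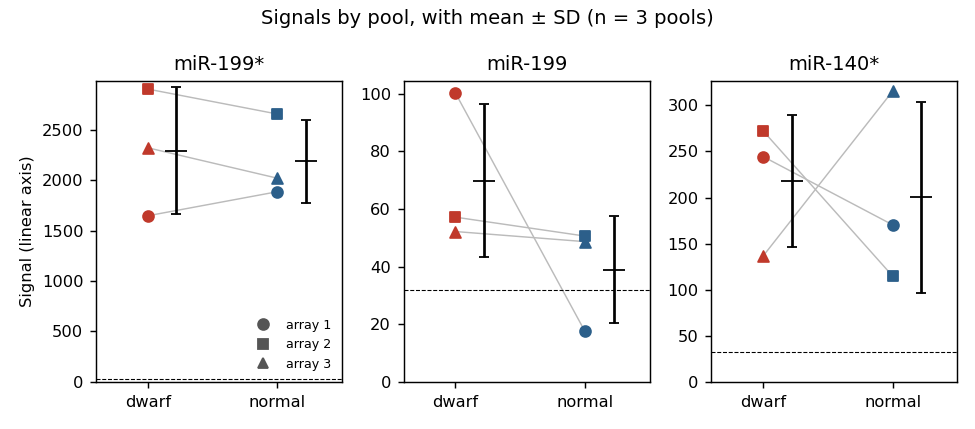
Signal (linear axes starting at 0) of miR-199*, miR-199 and miR-140* in the 3 dwarf and 3 normal pools, with mean ± SD (n = 3 pools) beside them, grey lines joining the pools of one array, and the detection standard of 32 as a dashed line. The strains overlap for miR-199* and miR-140*, and for miR-199 all 3 dwarf pools lie above the 3 normal pools by margins that are small on arrays 2 and 3.

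The array named both arms of 11 further hairpins as -5p and -3p, with no star. Of these 22 probes, 3 were detected (13.6%). miR-17-5p, of the miR-17-92 cluster, had a signal of 1150 against 0.12 for miR-17-3p, a difference of at least 35.9-fold. miR-30a-5p had 338 against 35.9 for miR-30a-3p, which was 9.43-fold. Neither arm was detected in the other 9 hairpins. For the star pairs the brighter detected probe was the partner in 11 of 13 pairs.

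Sequence features of the strands were described for the 74 pairs. The folding program gave the miR-199 pair 18 base pairs and a duplex energy of -23.7 kcal/mol, the 24th most stable of 74, and the miR-140 pair 16 base pairs and -26.2 kcal/mol, the 9th. The median pair had 16 base pairs and -20.9 kcal/mol, with a range from -33.3 to -6.30 kcal/mol. The pairs with a detected star were therefore within the range of the others. A uridine at the 5′ end is known from human and other animal Argonautes to favour loading. As listed, miR-199* began with U and its dimmer partner with C, while miR-140* began with C and its partner with A. The almost identical miR-199b was listed with C first, and the arrays do not measure where a strand begins. Whether the first base bears on the order within either pair was not tested. Of all star probes 31 of 77 (40.3%) began with U, of their partners 34 of 74 (45.9%), and of the detected probes without an asterisk 45 of 83 (54.2%). A cytidine came first in 20 star probes (26.0%) and in 8 partners (10.8%). These shares are descriptions of the array's list, and no test was made on them.

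The strains were compared through the ratio of the 2 dyes on each array, taken as dwarf over normal. Neither of the 2 star probes passed the test for a difference between the strains, limma with Benjamini-Hochberg adjustment over the 85 detected miRNAs. Of the 85, 0% passed at an adjusted p of 0.05, and 4.71% (4 probes, no star among them) had an unadjusted p below 0.05. The smallest adjusted p of any probe was 0.408.

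For miR-199* the log2 ratios were -0.22, 0.13 and 0.14 on arrays 1, 2 and 3. Their mean was 0.01 with a standard error of 0.18 and a 95% interval of -0.41 to 0.44 (limma, adjusted p = 0.970, 3 arrays). The overlapping miR-199b probe gave -0.28, 0.36 and 0.10, with the same sign as miR-199* on each array and an adjusted p of 0.970 in the limma fit. The partner miR-199 gave 0.52, -0.18 and -0.04, a mean of 0.10 with a standard error of 0.20 (limma, adjusted p = 0.970). The dye ratios of miR-199 on arrays 2 and 3 were below 0 although its signals there were slightly higher in dwarf pools. Ratios were computed from normexp values with an offset of 50 and signals by plain subtraction. For so dim a probe the 2 need not have the same direction, and which step turned it was not tested.

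For miR-140* the log2 ratios were 0.23, 0.82 and -0.99. Their mean was 0.02 with a standard error of 0.33 and a 95% interval of -0.78 to 0.81 (limma, adjusted p = 0.970, 3 arrays). The arrays disagreed in direction, and the SD of 0.923 was exceeded by 5 of the 85 probes, whose median SD was 0.284. On arrays 2 and 3 the higher pool was the one read in Cy3, and on array 1 it was the one read in Cy5. With a dye term in the fit the value was 0.22. A cause of the spread was not tested. The intervals given for miR-199* and miR-140* show the mean dye ratios compatible with the 3 arrays, and they are not limits of detection. Strain differences of a size within them were not excluded. On log2 signals in place of dye ratios, the mean difference was 0.04 for miR-199* and 0.19 for miR-140*.

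**Figure D4:**
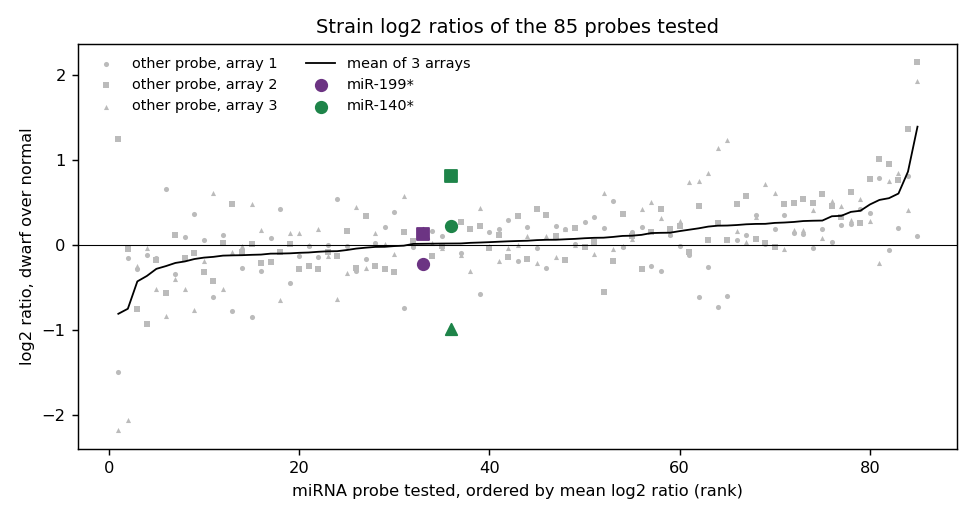
Log2 ratio of dwarf over normal on each of the 3 arrays for the 85 probes tested, ordered by their mean (black line), with miR-199* in purple and miR-140* in green. Both star probes have means near 0, and the 3 arrays of miR-140* run from -0.99 to 0.82.

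The strain difference within the miR-199 pair, as the log2 dye ratio of miR-199* less that of miR-199, was -0.74, 0.31 and 0.18 on the 3 arrays. Its mean was -0.08 ± 0.571 (SD, n = 3 arrays), and the exact two-sided sign-flip test gave p = 1, where 3 arrays cannot give less than 0.25. The direction was not the same on the 3 arrays. The dye ratios carried an offset of 50, close to the mean signal of miR-199 (54.4), which draws the ratio of so dim a probe towards 0. With plain subtraction and a floor of 1 in place of normexp and its offset, the mean difference was -1.53. The floor sets a spot below background to 1. In the normal pool of array 1, 5 of the 6 spots of miR-199 were above background, so this value rests partly on the floor. Neither of the star probes had the same sign on all 3 arrays, and 25 of the 85 probes tested did.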

How the data were processed

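The authors hybridised each array to a dwarf and a normal pool carrying Cy3 and Cy5, scanned it and deposited, for each spot, the intensity in both dyes, not corrected for background. They also deposited log2 ratios after background subtraction and LOWESS, whose direction is not labelled. By correlation with the scanner values (0.830 to 0.889 over 85 probes) it was dwarf over normal, and they served as an alternative. The labels and the methods name different RNA kits.

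Here, in R 4.3.3, a local surface (span 0.3, degree 1) through the miRNA spots on the log2 scale was the background. Ratios used limma 3.58.1: normexp with offset 50, loess (span 0.3, 4 iterations), the mean of 6 spots, array 2 turned round, and lmFit and eBayes against 0 with Benjamini-Hochberg adjustment over all 85 detected probes. Each array was 1 replicate and paired 1 pool of each strain. Signals were background-subtracted without an offset, with the loess curve shared between the dyes and the arrays scaled to one median. Duplexes were folded with RNAduplex 2.7.2. Named probes were, by rule, the detected star probes and their partners, and the others were chosen after their values were seen. In simulated arrays of 542 probes, 100 of 100 star probes set at a signal of 100 were detected and 0 of 650 set at 0. The simulated spots were built on the background surface fitted here, so this could not test the choice of background. Strain changes of 1 and 2 on the log2 scale were simulated in probes without an asterisk with signals above 50. All probes were given the median SD between arrays. Changes of 1 were called in 86.5% of probes and were estimated at 0.715 of their size. Over both sizes, 1.59% of calls were false. The SD of miR-140* (0.923) was above that median (0.284), so these rates do not cover it. Over 10 simulated sets, 200 probes were changed by each size, while 0 of the 85 probes passed in the data. With so many changes the adjustment is looser, and a single SD for all probes favours the limma fit. The rates are therefore not the power of the strain test in these data, also not for miR-199*. The arrays' number, 3, limits the precision. The members and lists were chosen with earlier results of these data known. The alternatives tried are in the closing section.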

Additional observations from a re-analysis of the deposited data

How the results depend on the processing

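The 2 detected star probes were the count in both strains under each alternative tried except as follows. With the background taken from the empty spots, 76 of 77 star probes and 464 of 465 other probes passed in normal chickens. The empty spots were dimmer than the surface under the miRNA spots in Cy3 (medians of -168, -15.5 and -62.8 on arrays 1, 2 and 3) and close to it in Cy5 (-0.89, 0.70 and 3.52), and normal pools were in Cy3 on 2 of 3 arrays. With a standard of 16, added after the data were seen like the empty-spot background for ratios and a plain-subtraction curve for signals, 3 star probes passed in dwarf chickens, the third being miR-1621*. No star probe passed the strain test under any of 15 alternatives, including the methods' t-test unpaired and paired by array, while 0 to 2 of all probes did (2 with a normexp offset of 16 or without replicate 3). With all 542 probes tested, 1 undetected star probe, miR-1798*, had an unadjusted p below 0.05 (limma, adjusted p = 0.903, log2 mean -0.09), as did 3.69% of all probes. The log2 mean of miR-199* turned to -0.0137 with plain subtraction, was 0.21 with median centring, and ran from -0.0477 to 0.13 with 1 array left out, with the sign changing without array 2 (-0.0408) or array 3 (-0.0477). That of miR-140* turned to -0.0608 with median centring, -0.0045 with the median of spots and -0.0909 with the authors' ratios, and ran from -0.38 without array 2 to 0.52 without array 3 (-0.0862 without array 1). The cause of these changes of sign was not tested. Adjusted p of the strain tests ran from 0.868 to 0.995 for miR-199* and from 0.917 to 0.997 for miR-140*. On log2 signals in place of dye ratios, the median of the 2 star probes was 0.12 both without the array as replicate block and paired by array, against 0.02 on dye ratios. The median over the 2 with 1 array left out ran from -0.21 to 0.24. The strain difference in the miR-199 pair was -1.53 with plain subtraction and a floor of 1. It turned to 0.41 with median centring and 0.25 without array 1, and ran from -0.28 to 0.25 with 1 array left out. The log2 ratio of miR-199* to miR-199 was 5.50 over all 6 pools with the signal of miR-199 as measured in each, and ran from 4.87 to 5.62. Depth here is signal over background.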
